A study of Rattus norvegicus with 12 samples.

Results

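The local vasoactive signals of the renal cortex were followed in 10 genes, listed by name, with earlier results of these data known: Edn1, Ednra, Ednrb and Ece1 of the endothelin system, the nitric oxide synthase Nos1, the cyclooxygenases Ptgs1 and Ptgs2, the prostaglandin receptors Ptger3 and Ptger4, and the adenosine receptor Adora1. All 10 were among the 13151 genes of the deposited table, and all 10 passed the filter on low values that 11633 genes passed. RNA was sequenced from the whole renal cortex of 12 male rats aged 32 weeks, 4 in each of 3 groups. Zucker lean (ZL) rats were the untreated controls. Zucker fatty (ZF) rats were the untreated obese model, without a functional leptin receptor according to the methods of the study, although the series text calls them leptin-deficient. ZF-SGLT2i rats were ZF rats that ate canagliflozin, an inhibitor of the sodium-glucose cotransporter SGLT2, in their food at 10 mg/kg/day for 8 weeks from the age of 24 weeks, with the food per body weight matched to untreated ZF rats. The receptor defect is present in every organ of a ZF rat, the kidney included, so its effect there and that of obesity cannot be told apart. Only a figure legend of the study names the sequenced untreated ZF rats as ZF-NT. Its methods describe that arm as randomised with the treated rats from a single purchase. Its results call the sequenced rats ZF, a name also used for rats of its time course. The methods describe ZL rats in that time course, of another purchase, with earlier kidney biopsies. If the legend holds, purchase, biopsy and obesity cannot be told apart between ZL and the other groups. The time of day at which the rats were killed is also not given in the study. Each rat had between 8824980 and 12210257 reads on genes, and values are CPM, reads scaled to the size of the library. In whole cortex, fewer cells of a type and less RNA per cell cannot be told apart.

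These genes belong to signals that act near the cell that releases them. Endothelin-converting enzyme cuts the precursor of endothelin to the active peptide, which constricts vessels through the A receptor on smooth muscle and, through the B receptor on endothelium and collecting duct, leads to nitric oxide release, salt excretion and clearance of the peptide. Cyclooxygenases turn arachidonic acid into prostaglandins, which act on the EP receptors of vessels and tubules. The macula densa, the salt-sensing tubule cells beside the glomerulus, is known for holding both Nos1 and Ptgs2, and adenosine acting on its A1 receptor on the afferent arteriole constricts that vessel in tubuloglomerular feedback.

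Ptgs2, Adora1, Ednrb and Ptger4 were higher in the obese ZF rats than in ZL rats, and Ptgs2 by far the most of the 10, at 7.02 times the mean of ZL. In ZF, 4 of the 10 genes passed the test and all 4 were higher, where 18.8% of all genes tested passed in either direction and 8.19% as higher. Adora1 is in that count only because obese rats reached the 1 CPM of the filter, which no ZL rat did. Nothing is read from its part in the count. With a filter on a mean of at least 10, which Adora1 does not reach, 3 of the 10 passed. The median log2 fold change of the 10 was 0.25, and that of all genes tested was −0.0077. In ZF-SGLT2i against ZF, 0 of the 10 passed by limma, where 3.15% of all genes did, and 0 passed by edgeR or DESeq2. At an unadjusted p under 0.05, 1 gene passed there (Nos1), where 17.2% of all genes did, and the medians were −0.014 for the 10 and 0.0064 for all genes. In ZF-SGLT2i against ZL, 4 of the 10 passed, all as higher (Ptgs2, Ednrb, Nos1 and Ptger4), where 27.4% of all genes passed in either direction and 12.4% as higher. The last count came to 2 without ZL rat 1, without ZL rat 4, and without ZF-SGLT2i rat 3, 4 or 6, each left out alone. The 3 comparisons share rats, ZL in the first and the last, ZF in the first and the second, and ZF-SGLT2i in the second and the last, so their results are not independent of each other.

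**Figure D1:**
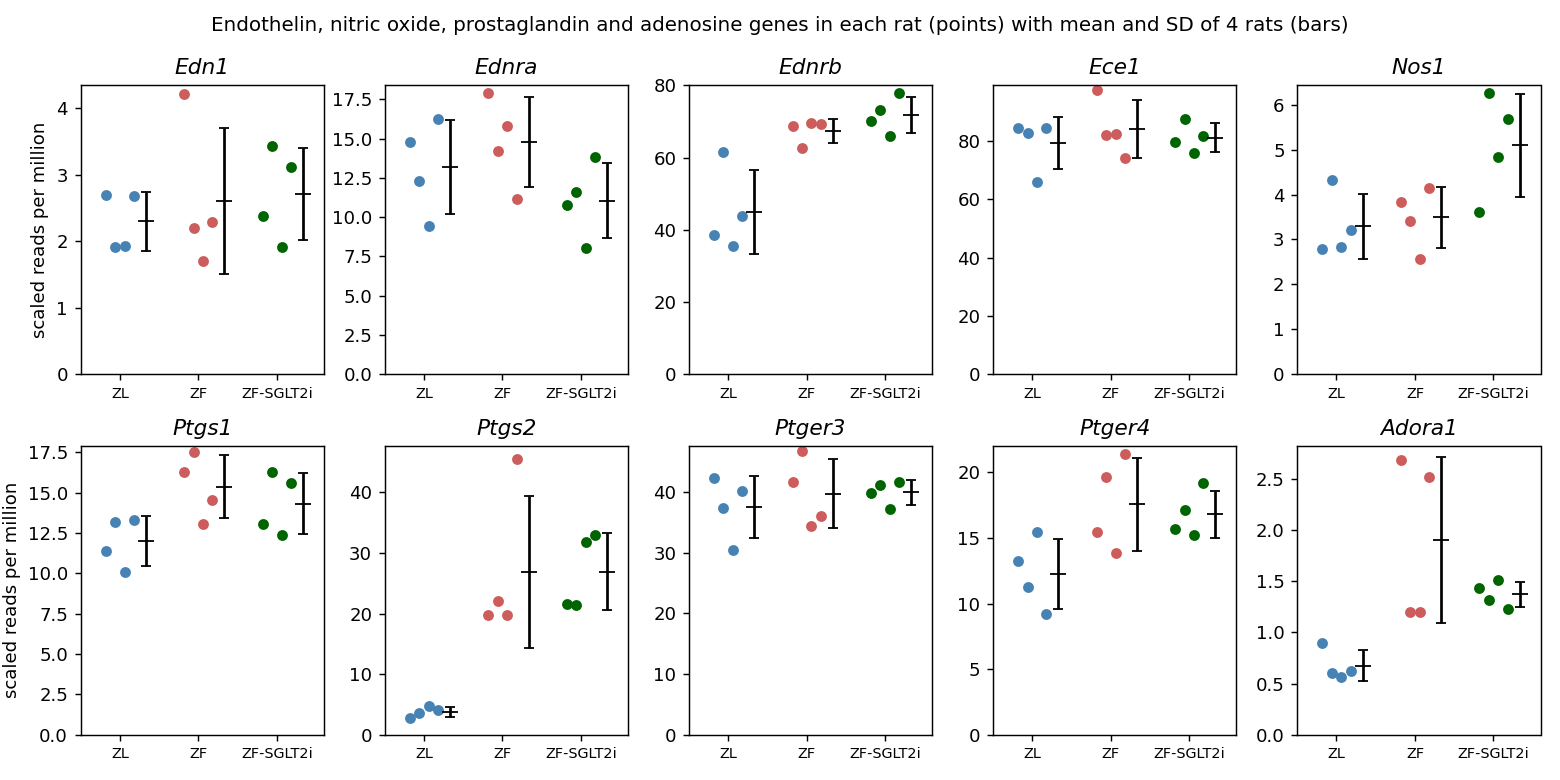
CPM of the 10 genes (each panel has its own vertical axis from 0), with a point for each rat and a bar for the mean and SD of 4 rats in ZL, ZF and ZF-SGLT2i. Ptgs2 lies between 2.78 and 4.76 in ZL and at 19.7 or above in each of the other 8 rats, and the ZL points of Ednrb and Adora1 also lie below those of both obese groups.

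Ptgs2 encodes the inducible cyclooxygenase. The 4 ZL rats had 2.78, 3.64, 4.76 and 4.11 CPM, from 31 to 46 reads a rat. The 4 ZF rats had 19.8, 22.1, 19.7 and 45.6 CPM, and the 4 ZF-SGLT2i rats had 21.5, 21.5, 31.8 and 33.0 CPM. No rat of either obese group overlapped with ZL, and ZF rat 5 stood above the other ZF rats. The ZL mean was 3.82 ± 0.83 (SD, n = 4), against 26.8 ± 12.6 for ZF and 27.0 ± 6.30 for treated rats. On the log2(value + 1) scale the difference was 2.45 (SE 0.24, 95% confidence interval 1.94 to 2.97, limma adjusted p = 3.11e-05) between ZF and ZL. Its rank was 5 among the rises of all 11633 genes. The difference was 2.52 (adjusted p = 1.61e-05) between ZF-SGLT2i and ZL, and an exact permutation test of 4 rats against 4 gave p = 0.0286 for both, the smallest it allows. Of all genes tested, 8.67% had ZF rats all above ZL rats and 12.9% had ZF-SGLT2i rats all above ZL rats. Between ZF-SGLT2i and ZF the difference was 0.07 with an interval of −0.45 to 0.58 (adjusted p = 0.92), so changes of up to those bounds could not be seen with 4 rats a group. Without ZF rat 5 it was 0.35 (adjusted p = 0.28), and the rise in ZF over ZL was 2.18 (adjusted p = 1.97e-05).

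Ptgs1, the constitutive cyclooxygenase, held 11.4, 13.2, 10.1 and 13.3 CPM in the ZL rats, 16.3, 17.5, 13.1 and 14.5 CPM in the ZF rats and 13.0, 16.3, 12.4 and 15.6 CPM in the ZF-SGLT2i rats. The groups overlapped. The difference between ZF and ZL was 0.33 with an interval of 0.08 to 0.59, and it did not pass the test (limma adjusted p = 0.0684), although array quality weights brought it past the threshold, as did the removal of ZF rat 4. Treated and untreated ZF rats differed by −0.10 with an interval of −0.35 to 0.16. A test of Ptgs2 against Ptgs1 was not run. The 250 bases before the start of each of these 2 genes are shown, from RefSeq (rat assembly GRCr8, both on the + strand, chr13:64713813-64714062 for Ptgs2 and chr3:39981169-39981418 for Ptgs1). Capitals mark letters searched on both strands.

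Ptgs2: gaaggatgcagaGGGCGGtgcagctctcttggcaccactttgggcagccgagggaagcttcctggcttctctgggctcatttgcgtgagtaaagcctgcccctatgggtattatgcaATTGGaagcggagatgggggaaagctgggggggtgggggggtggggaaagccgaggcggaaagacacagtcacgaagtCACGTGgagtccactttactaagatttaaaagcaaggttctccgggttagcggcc

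Ptgs1: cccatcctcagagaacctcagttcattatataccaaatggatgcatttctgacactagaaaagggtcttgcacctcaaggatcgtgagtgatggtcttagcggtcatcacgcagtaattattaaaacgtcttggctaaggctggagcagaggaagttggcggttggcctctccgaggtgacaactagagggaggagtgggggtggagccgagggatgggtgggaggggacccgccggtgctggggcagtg

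The letters searched were those of the E-box form CACGTG (which clock proteins and other basic helix-loop-helix factors can bind), the AP-1 site TGACTCA, the cyclic AMP response element TGACGTCA, the hypoxia response core ACGTG (which overlaps the E-box), the GC box GGGCGG, the CCAAT box and the TATA box TATAAA. Ptgs2 held the E-box at −55 to −50 from its start, the CCAAT box on the other strand at −133 to −129 and the GC box at −238 to −233, while none of these letters stood before the start of Ptgs1. All 10 genes had an entry, and over the window of 300 bases that also takes in the 50 after the start, 1 of the 10 held the E-box, against 6.42% of 33469 promoters. The GC box stood in 4 of the 10 (33.1% of all promoters), the CCAAT box in 2 (37.5%), the hypoxia core in 3 (19.3%), and the AP-1 site, the cyclic AMP element and the TATA box in 1 each (4.63%, 1.83% and 14.2%). A match describes the letters and does not show binding, and a link between these letters and the values was not tested.

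Ptger4 and Ptger3 encode EP receptors of prostaglandin E, of which the first raises cyclic AMP and relaxes vessels and the second lowers cyclic AMP. Ptger4 held 13.3, 11.3, 15.4 and 9.20 CPM in ZL, 15.4, 19.6, 13.8 and 21.4 CPM in ZF and 15.7, 17.2, 15.2 and 19.2 CPM in ZF-SGLT2i. Of these, the highest ZL rat lay within the range of ZF and just inside that of ZF-SGLT2i. The difference was 0.49 (SE 0.15, limma adjusted p = 0.0427) for ZF against ZL and 0.44 (adjusted p = 0.0494) for ZF-SGLT2i against ZL, both close to the threshold. The first call was lost in 11 of 22 alternatives and the other in 12 of 22, with adjusted p-values of 0.0162 to 0.12 and 0.0206 to 0.137. Between ZF-SGLT2i and ZF it was −0.05 (interval −0.38 to 0.29). Ptger3 ranged from 30.5 to 46.8 CPM over the 12 rats, and its means, over ZL, ZF and treated rats in turn, were 37.6 ± 5.11, 39.7 ± 5.68 and 39.9 ± 1.99 (SD, n = 4). Its differences were 0.08, 0.02 and 0.09 in the 3 comparisons, less than the spread between rats, with an interval of −0.15 to 0.31 in ZF against ZL.

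Among the endothelin genes, the B receptor was higher in both obese groups than in lean rats, and the ligand, its converting enzyme and the A receptor did not pass in any comparison. Ednrb held 38.5, 61.5, 35.6 and 43.9 CPM in ZL, 68.7, 62.5, 69.5 and 69.2 CPM in ZF and 70.1, 73.1, 65.9 and 77.9 CPM in ZF-SGLT2i. All 8 obese rats lay above all 4 ZL rats, ZF rat 3 and ZL rat 2 by a narrow margin, and the obese groups overlapped with each other. The ZL mean of 44.9 ± 11.6 (SD, n = 4) compared with 67.5 ± 3.30 for ZF rats, a log2 difference of 0.61 (SE 0.13, limma adjusted p = 0.00609). That call was lost in 1 of 22 alternatives, with the rat number as a block (adjusted p = 0.0599). In ZF-SGLT2i the mean was 71.7 ± 5.06 and the difference from ZL was 0.69 (adjusted p = 0.00155), or 1.60 times the mean of ZL. Between ZF-SGLT2i and ZF it was 0.09 with an interval of −0.19 to 0.36. An exact permutation test gave p = 0.0286 for both obese groups against ZL, and p = 0.20 between the obese groups.

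Edn1, the gene of the endothelin-1 precursor, was counted with 17 to 44 reads a rat, so single values carry a wide counting error. It held 2.69, 1.91, 1.93 and 2.68 CPM in ZL, 4.22, 2.20, 1.71 and 2.30 CPM in ZF and 2.38, 3.43, 1.91 and 3.12 CPM in ZF-SGLT2i. The groups overlapped throughout, and the differences were 0.09 (interval −0.34 to 0.52) for ZF against ZL and 0.07 (−0.37 to 0.50) for ZF-SGLT2i against ZF. Ece1, the converting enzyme, lay between 65.8 and 97.6 CPM in the 12 rats, with a ZL mean of 79.3 ± 9.03, a ZF mean of 84.0 ± 9.85 and a mean of 81.1 ± 4.88 (SD, n = 4) after treatment. Its interval was the narrowest of the 10, −0.12 to 0.28 in ZF against ZL and −0.25 to 0.16 in ZF-SGLT2i against ZF. Ednra, the A receptor, held 14.8, 12.3, 9.41 and 16.3 CPM in ZL, 17.9, 14.2, 15.8 and 11.1 CPM in ZF and 10.8, 11.6, 8.05 and 13.8 CPM in ZF-SGLT2i. The groups overlapped here too, and the ZF-SGLT2i mean was the lowest of the 3. Between ZF-SGLT2i and ZF the difference was −0.39 with an interval from −0.78 to 0.00029 (limma unadjusted p = 0.0501, adjusted p = 0.29), and between ZF and ZL it was 0.16 (adjusted p = 0.59).

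**Figure D2:**
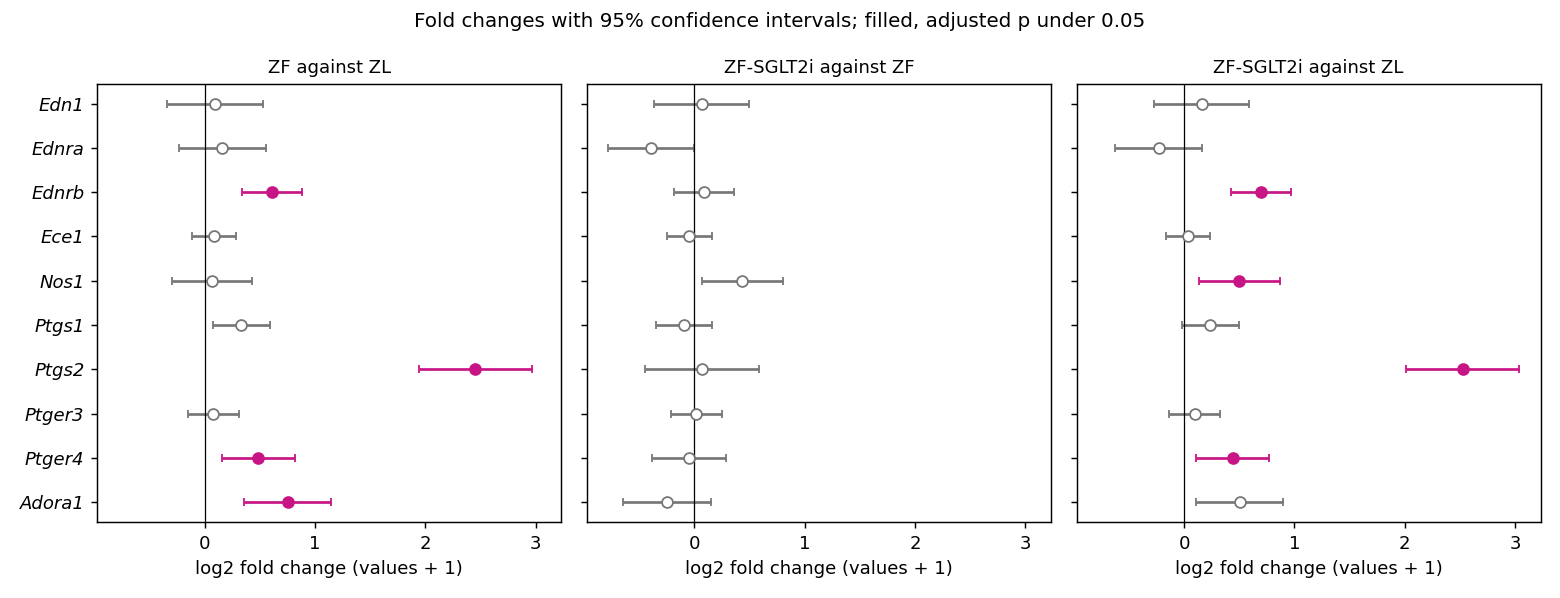
Log2 fold changes of the 10 genes on the log2(value + 1) scale (horizontal axis) with 95% confidence intervals from limma, for the 3 comparisons in 3 panels. Filled points have an adjusted p under 0.05: 4 of 10 in ZF against ZL, 0 in ZF-SGLT2i against ZF and 4 in ZF-SGLT2i against ZL, and the points of Ptgs2 stand at 2.45, 0.07 and 2.52.

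Nos1, the neuronal nitric oxide synthase, was counted with 25 to 62 reads a rat. It held 2.78, 4.33, 2.83 and 3.22 CPM in ZL, 3.84, 3.41, 2.56 and 4.15 CPM in ZF and 3.62, 6.26, 4.83 and 5.68 CPM in ZF-SGLT2i. Of the ZF-SGLT2i rats, 3 lay above every ZL and ZF rat and rat 2 lay within both. Lean rats averaged 3.29 ± 0.72 (SD, n = 4), ZF rats 3.49 ± 0.69 and treated rats 5.10 ± 1.15. ZF and ZL differed by 0.07 (interval −0.30 to 0.43, limma adjusted p = 0.83). ZF-SGLT2i and ZF differed by 0.43 (interval 0.07 to 0.80), with an unadjusted p of 0.0229 that did not pass over all genes (adjusted p = 0.20) in any alternative. ZF-SGLT2i and ZL differed by 0.50 (adjusted p = 0.0420), a call that was lost in 11 of 21 alternatives, where the adjusted p ranged from 0.0169 to 0.274.

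Adora1, the A1 receptor, had the fewest reads of the 10, from 5 to 28 a rat. It held 0.897, 0.607, 0.567 and 0.625 CPM in ZL, 2.68, 1.20, 1.20 and 2.51 CPM in ZF and 1.43, 1.31, 1.51 and 1.23 CPM in ZF-SGLT2i. All 8 obese rats lay above all 4 ZL rats, and ZF rats 2 and 5 lay above every ZF-SGLT2i rat. The mean in ZF was 2.82 times that in ZL, and on the log2(value + 1) scale, which understates the change of a gene near 1 CPM, the difference was 0.75 (SE 0.18, limma adjusted p = 0.0135). No ZL rat reached the 1 CPM of the filter, so Adora1 was tested only through the obese groups, where it was high. With no filter its call held, and with the rat number as a block it was lost (limma adjusted p = 0.0839). For ZF-SGLT2i against ZL the difference was 0.50 and did not pass (adjusted p = 0.0575), but it passed in 8 of 21 alternatives. For ZF-SGLT2i against ZF it was −0.25 (interval −0.65 to 0.15, adjusted p = 0.53). In the reference table Adora1 overlaps Mybph, a muscle gene, which had 0 to 4 reads a rat here, and how the counting treated strand is not given in the sources used here.

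The other genes of the 4 pathways came from a list of 65, and the table held 63 of them, with 56 past the filter. In ZF against ZL, 9 of the 56 were higher and 7 lower, beside 8.19% and 10.6% of all genes tested, with a median of 0.18. In ZF-SGLT2i against ZF, 1 was higher and 2 lower, beside 1.39% and 1.75% of all genes, with a median of −0.07. In ZF-SGLT2i against ZL, 10 were higher and 10 lower, beside 12.4% and 15.0%, with a median of 0.02. The lists were chosen with earlier results of these data known, and nothing is read from a share near that of all genes.

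Of the 17 further prostaglandin genes tested, 3 were higher and 0 lower in ZF against ZL (beside 8.19% and 10.6% of all genes). Pla2g4a, the cytosolic phospholipase that frees arachidonic acid for the cyclooxygenases, rose by 0.57 (limma adjusted p = 0.00316), from a ZL mean of 14.6 ± 1.82 CPM to 22.2 ± 2.00 CPM, and treated rats averaged 21.2 ± 2.55 CPM (SD, n = 4). In the reference table it is the nearest protein-coding gene before Ptgs2 on the same chromosome. Cbr1, a carbonyl reductase of prostaglandins, rose by 0.40 (adjusted p = 0.0418) and Slco2a1, a prostaglandin transporter, by 0.25 (adjusted p = 0.0255), calls that were lost in 12 of 22 and 7 of 22 alternatives (adjusted p up to 0.151 and 0.0745). In ZF-SGLT2i against ZF, Ptger1, the EP receptor that raises calcium, was the prostaglandin gene that passed, at 0.44 (adjusted p = 0.0167), a call lost in 3 of 22 alternatives (adjusted p up to 0.0574). Its 4 ZF-SGLT2i rats held 33.8, 33.1, 31.2 and 35.4 CPM, and the 4 ZF rats held 22.9, 27.3, 21.1 and 26.7 CPM. The ZL rats lay between 18.6 and 22.4 CPM, so Ptger1 stood highest in the treated rats (0.67 over ZL, adjusted p = 0.000164). Ptgfr and Tbxa2r, receptors of prostaglandin F and of thromboxane, passed in ZF-SGLT2i against ZL at 0.52 and 0.34, as did Cbr1 and Pla2g4a at 0.63 and 0.50 and, as lower, the prostaglandin E synthase Ptges3 at −0.21. Ptgfr passed in all 22 alternatives, whereas Tbxa2r lost its call in 12 of 21 and Ptges3 in 11 of 22 (adjusted p up to 0.226 and 0.212). Ptger2, the remaining EP receptor, had at most 6 reads in a rat and was not tested.

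Of the 23 further nitric oxide genes tested, 4 were higher and 2 lower in ZF against ZL (beside 8.19% and 10.6% of all genes). The endothelial synthase Nos3 rose by 0.41 (limma adjusted p = 0.0421), with ZL rats between 11.0 and 15.7 CPM and ZF rats between 15.8 and 20.5 CPM, the highest ZL rat and the lowest ZF rat being almost level. Nostrin, which moves that enzyme within the cell, rose by 0.36, Dynll1, which binds the neuronal synthase, by 0.32, and Ddah2, which breaks down methylated arginines that block the synthases, by 0.27. Gchfr, which regulates synthesis of the cofactor tetrahydrobiopterin, was lower at −0.62, and Agxt2, which also removes methylated arginines, at −0.52. The call of Nos3 was lost in 10 of 22 alternatives (adjusted p up to 0.223), that of Agxt2 in 11 of 22 (up to 0.143) and that of Nostrin in 6 of 21 (up to 0.107). Those of Dynll1 and Ddah2 were lost in 1 of 22 each, with the rat number as a block (limma adjusted p = 0.0869 and 0.0992). In ZF-SGLT2i against ZF, Gucy1b3 (Gucy1b1 in the current reference), a subunit of the guanylate cyclase that nitric oxide activates, was lower at −0.60 (adjusted p = 0.0252). It had 26.3, 22.2, 27.2 and 17.7 CPM in ZF and 15.6, 13.5, 14.5 and 16.2 CPM in ZF-SGLT2i, and its call was lost in 5 of 22 alternatives, each with 1 rat left out (adjusted p up to 0.0850). Of the 23, 3 were higher and 4 lower in ZF-SGLT2i against ZL (beside 12.4% and 15.0% of all genes). Agxt2 (−0.79), Gchfr (−0.48), Ddah2 (0.30) and Dynll1 (0.21) passed there as well. The call of Dynll1 was lost in 7 of 22 alternatives and that of Ddah2 in 1. The arginine-making enzymes Ass1 and Asl passed in that comparison, at −0.71 and −0.63, and the arginine transporter Slc7a1 at 0.41, a call lost in 5 of 22 alternatives (adjusted p up to 0.108). With the rat number as a block, 1 of 22 alternatives, the calls of Ass1 and Asl were lost (limma adjusted p = 0.108 and 0.0724). Nos2, the inducible synthase, was not analysed here.

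Of the 14 further adenosine genes tested, 2 were higher and 4 lower in ZF against ZL (beside 8.19% and 10.6% of all genes). Entpd1 and Entpd2, enzymes on the cell surface that break down ATP on the way to adenosine, rose by 0.55 and 0.34 (limma adjusted p = 0.00823 and 0.00334). Entpd5 of the same family was lower at −0.47. Other genes of adenosine metabolism and transport were lower as well, with the adenosine kinase Adk at −0.36, the hydrolase Ahcy, which releases adenosine from S-adenosylhomocysteine, at −0.69 and the nucleoside transporter Slc29a3 at −0.65. The call of Adk was lost in 7 of 22 alternatives (adjusted p up to 0.0781), that of Entpd5 in 2 of 22 (up to 0.131) and that of Ahcy in 1 of 22 (up to 0.0626). Entpd2 was the gene of this list that passed in ZF-SGLT2i against ZF, as lower at −0.49 (adjusted p = 0.00113). It had 48.6, 46.7, 50.3 and 55.2 CPM in ZL, 66.0, 62.4, 64.5 and 62.9 CPM in ZF and 41.4, 47.6, 47.4 and 45.0 CPM in ZF-SGLT2i, so the ZF rats stood above both other groups, and its call held in all 22 alternatives in both comparisons. Of the 14, 2 were higher and 4 lower in ZF-SGLT2i against ZL (beside 12.4% and 15.0% of all genes). Slc29a3 (−0.85), Ahcy (−0.59), Adk (−0.34) and Entpd1 (0.36) passed there as well. The call of Entpd1 was lost in 9 of 22 alternatives, that of Adk in 6 and that of Ahcy in 1. Nt5e, the enzyme that makes adenosine from AMP, passed in that comparison at −0.48, and the phosphorylase Pnp at 0.18. The call of Pnp was lost in 1 of 22 alternatives, with the rat number as a block (limma adjusted p = 0.149). The other adenosine receptors did not pass in any comparison: Adora2a averaged 3.86 ± 0.84 CPM (ZL), 5.46 ± 0.80 (ZF) and 5.57 ± 1.52 (ZF-SGLT2i, SD, n = 4), Adora2b averaged 1.41 ± 0.15, 2.19 ± 0.49 and 2.32 ± 0.68 CPM, and Adora3 had at most 6 reads in a rat and was not tested.

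Of the endothelin genes beside the 4 above, Mme, the peptidase neprilysin that breaks down endothelin and natriuretic peptides, was lower in both obese groups. It had 504, 256, 285 and 877 CPM in ZL, 212, 98.1, 122 and 93.0 CPM in ZF and 99.9, 129, 121 and 119 CPM in ZF-SGLT2i. The difference was −1.76 (SE 0.33, limma adjusted p = 0.00347) in ZF and −1.85 (adjusted p = 0.00135) in ZF-SGLT2i. With the rat number as a block, 1 of 22 alternatives, the call in ZF was lost (limma adjusted p = 0.0616). The call in ZF-SGLT2i held in all 22. Mme also belongs to the brush border of the proximal tubule, whose 7 markers summed to 19668 ± 933 CPM for ZL rats, 15624 ± 1774 for ZF rats and 13644 ± 1535 (SD, n = 4) for treated rats, with Lrp2 the most abundant and none at 0. Of the 7, 1 was higher and 2 lower in ZF against ZL (beside 8.19% and 10.6% of all genes) and 0 higher and 3 lower in ZF-SGLT2i against ZL (beside 12.4% and 15.0%). The part of those cells in the fall of Mme was not tested. Ece2 averaged 1.29, 1.56 and 1.07 CPM and did not pass, Edn3 had at most 9 reads in a rat and was not tested, and Edn2 was not analysed here.

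**Figure D3:**
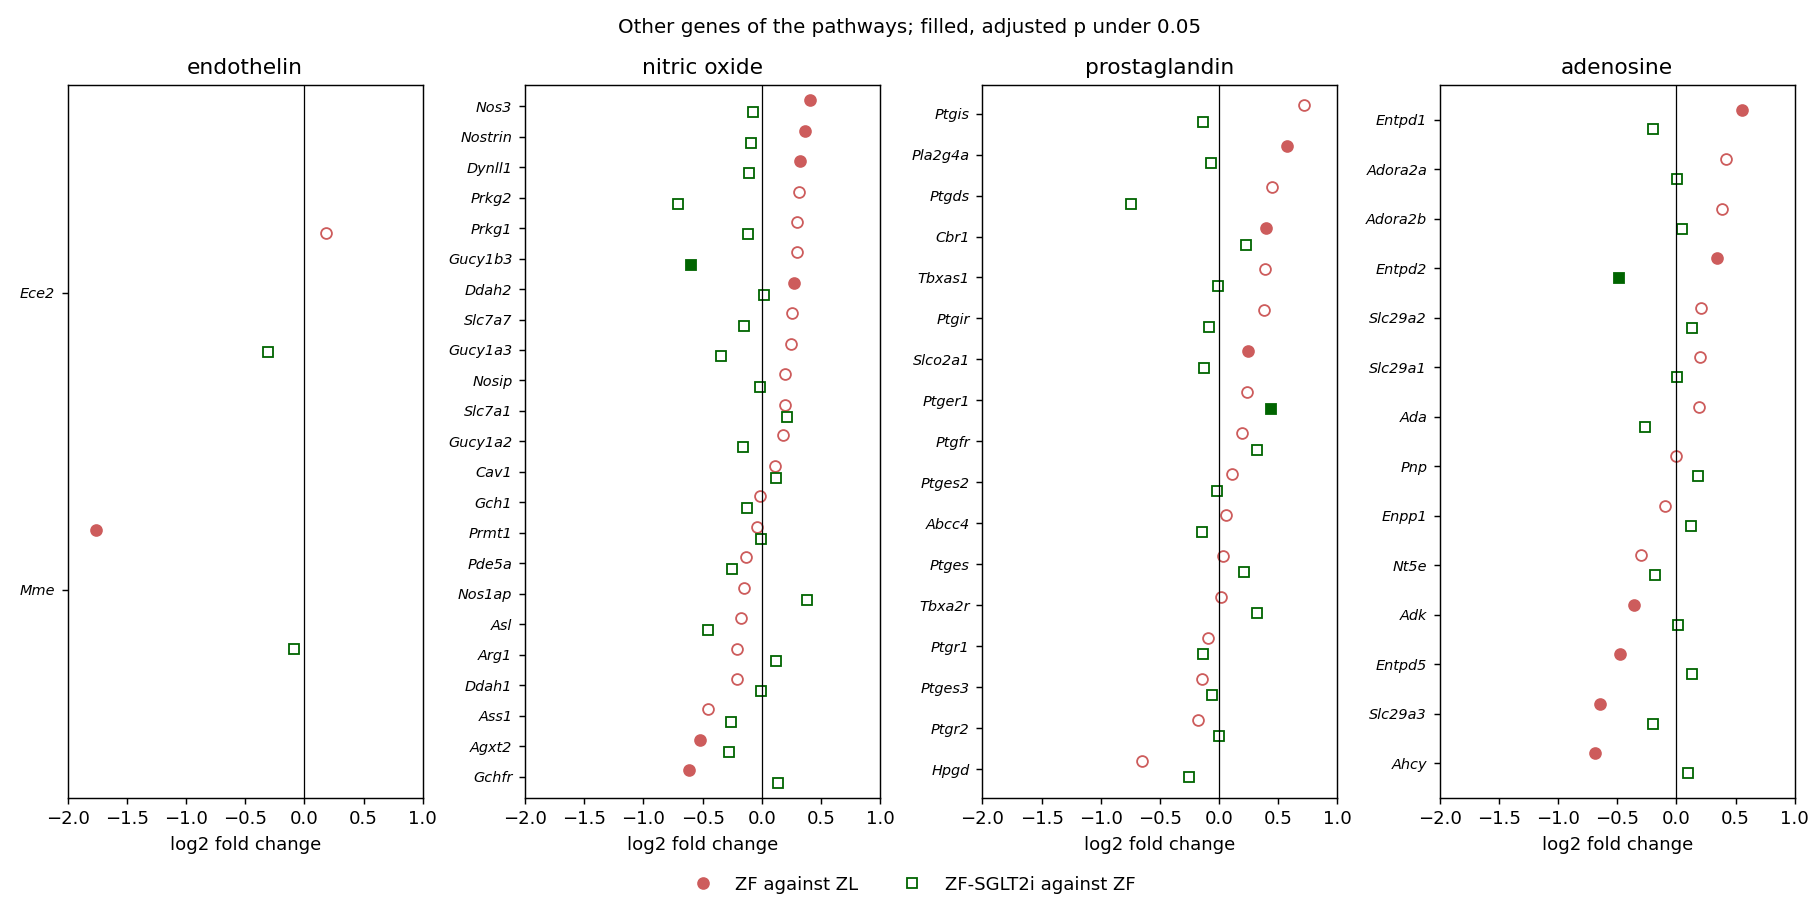
Log2 fold changes (horizontal axis, log2(value + 1) scale) of the 56 further pathway genes tested, by pathway and in the order of ZF against ZL. Circles are ZF against ZL and squares are ZF-SGLT2i against ZF, and filled symbols have a limma adjusted p under 0.05: 16 circles and 3 squares (Gucy1b3, Ptger1 and Entpd2).

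Clock genes and markers of cells that hold these genes are given beside them. The clock genes, whose RNA follows the time of day, had 7 higher and 3 lower of 12 tested in ZF against ZL (beside 8.19% and 10.6% of all genes), among them Dbp at 2.68, Per3 at 1.84 and Arntl at −3.38. Their summed level was 695, 870, 904 and 885 CPM in ZL, 1412, 1520, 1257 and 1690 CPM in ZF and 1658, 1524, 1661 and 1790 CPM in ZF-SGLT2i. As with Ptgs2, no ZL rat overlapped with an obese rat, and in ZF-SGLT2i against ZF 0 of the 12 passed by limma, beside 3.15% of all genes, with 2 at an unadjusted p under 0.05, beside 17.2%. Tef was the most abundant gene of the list, none was at 0 in any rat, and Hlf and Bhlhe41 were not analysed here. Ciart, among the 12, reached the 1 CPM of the filter in obese rats alone, and nothing is read from its part in the counts. The clock sum and Ptgs2 split the rats in the same way, and the part of the time of killing in the rise of Ptgs2 was not tested.

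For the macula densa, 3 of 4 markers were in the table (Pappa2 was not analysed here), none was at 0, and Slc12a1, shared with the thick limb, was the most abundant. The sum was 946, 756, 851 and 1366 CPM in ZL, 1068, 699, 805 and 743 CPM in ZF and 633, 834, 707 and 695 CPM in ZF-SGLT2i, with overlap between the groups, and nearly all of it was Slc12a1 (mean 938, 770 and 653 CPM). The other markers differed from that sum. Robo2 averaged 41.8, 57.7 and 63.7 CPM and rose over ZL by 0.45 in ZF (limma adjusted p = 0.00909) and by 0.59 in ZF-SGLT2i (adjusted p = 0.000958). Its means rose in the same order of groups as the podocyte sum (1373, 1782 and 1821 CPM), and which cells of the cortex held its RNA was not tested. Oxtr had at most 8 reads in a rat and was not tested. The part of macula densa cells in the rise of Ptgs2 was not tested. The 3 juxtaglomerular and mesangial markers used, of which Pdgfrb was the most abundant and none at 0, summed to 166 ± 14.7 CPM for ZL rats, 246 ± 22.7 for ZF rats and 211 ± 19.1 (SD, n = 4) for treated rats. Their ZL sums reached 178 CPM and the sums of obese rats began at 195 CPM. In ZF-SGLT2i only Gata3 lay wholly above ZL, at 65.0 CPM or more against at most 52.8 CPM. Pdgfrb and Itga8 of the treated rats began at 95.7 and 26.9 CPM and overlapped with ZL, which reached 110 and 36.2 CPM. Of the 3, 2 rose in ZF over ZL (Pdgfrb, 0.67, and Itga8, 0.73, beside 8.19% of all genes), 1 was lower in ZF-SGLT2i than in ZF (Pdgfrb, −0.50, beside 1.75%) and 1 rose in ZF-SGLT2i over ZL (Gata3, 0.70, beside 12.4%).

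The collecting duct, a main site of Ednrb, had 8 of 8 markers in the table, none at 0 and Hsd11b2 the most abundant. Its sum was 2102, 2740, 2170 and 1748 CPM in ZL, 2326, 2824, 2095 and 2987 CPM in ZF and 3079, 3320, 3274 and 3698 CPM in ZF-SGLT2i. Of the 8 markers, 1 rose in ZF over ZL (Scnn1g, 0.56, beside 8.19% of all genes), 1 in ZF-SGLT2i over ZF (Aqp2, 0.62, beside 1.39%) and 7 in ZF-SGLT2i over ZL (beside 12.4%). The treated rats lay above all others, whereas the Ednrb values of treated and untreated obese rats overlapped. The 10 endothelial markers, with Kdr the most abundant and none at 0, summed to 831 ± 117, 972 ± 59.2 and 926 ± 117 CPM (SD, n = 4), in the order ZL, ZF and ZF-SGLT2i. Of the 10, 1 (Eng, 0.31) rose in ZF over ZL, a share near the 8.19% of all genes. In ZF-SGLT2i over ZL 2 of the 10 rose, beside 12.4%. The 6 podocyte markers, with Podxl the most abundant and none at 0, summed to 1373 ± 182, 1782 ± 181 and 1821 ± 205 CPM (SD, n = 4), with the highest ZL rat above the lowest rat of each obese group. Of the 6, 3 rose over ZL in each obese group (Nphs1, Podxl and Synpo), beside 8.19% of all genes in ZF and 12.4% in ZF-SGLT2i. Between the obese groups 0 of the 6 passed by limma, beside 3.15%, with 1 at an unadjusted p under 0.05, beside 17.2%. Smooth muscle, the site of Ednra, summed to 173 ± 38.1, 224 ± 57.3 and 157 ± 22.8 CPM over 7 markers, and the groups overlapped. Of the 7, 1 rose in ZF over ZL (Des, 1.17) and 1 was lower in ZF-SGLT2i than in ZF (Tagln, −0.77), beside 8.19% and 1.75% of all genes.

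Fibroblast markers, with Pdgfra the most abundant of 6 and none at 0, summed to 494 ± 77.1 CPM for ZL rats, 606 ± 144 for ZF rats and 350 ± 28.4 (SD, n = 4) for treated rats. The treated rats, at up to 386 CPM, lay below all ZF rats, which began at 447 CPM, and overlapped with ZL. Of 5 tested, 3 were lower in ZF-SGLT2i than in ZF (Dcn at −1.11, Col3a1 at −1.03 and Col1a2 at −0.79, beside 1.75% of all genes), the comparison in which Gucy1b3 was lower. Against ZL, 3 of the 5 were lower in ZF-SGLT2i, beside 15.0% of all genes, and 1 was higher in ZF, beside 8.19%. The thick limb markers, led by Umod, summed to 6463 ± 873, 5540 ± 872 and 4251 ± 406 CPM, and the treated rats lay below all others. Of those 5, 1 was lower in ZF than in ZL (Egf) and 2 in ZF-SGLT2i than in ZL (Egf and Umod), beside 10.6% and 15.0% of all genes. The inner medulla list, in which Slc6a6 was the most abundant and Slc14a2 was at 0 in some rats, summed to 266 ± 25.3, 275 ± 13.3 and 318 ± 19.8 CPM, with 3 of 5 higher and 1 lower in ZF-SGLT2i against ZL (beside 12.4% and 15.0%). The macrophage sum was 66.3 ± 11.0, 85.2 ± 15.0 and 75.0 ± 28.6 CPM, led by Csf1r and with Cd163 at 0 in some rats, and 0 of 5 tested passed in any comparison by limma. At an unadjusted p under 0.05 there was 1 of them in ZF against ZL, 1 in ZF-SGLT2i against ZF and 0 in ZF-SGLT2i against ZL, beside 33.1%, 17.2% and 39.3% of all genes. Of the neuron list, 2 of 5 genes were used here, summing to at most 5.67 CPM in a rat. The part of any of these cell types in the values of Ednrb, Ednra, Ptger4 and Gucy1b3 was not tested.

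**Figure D4:**
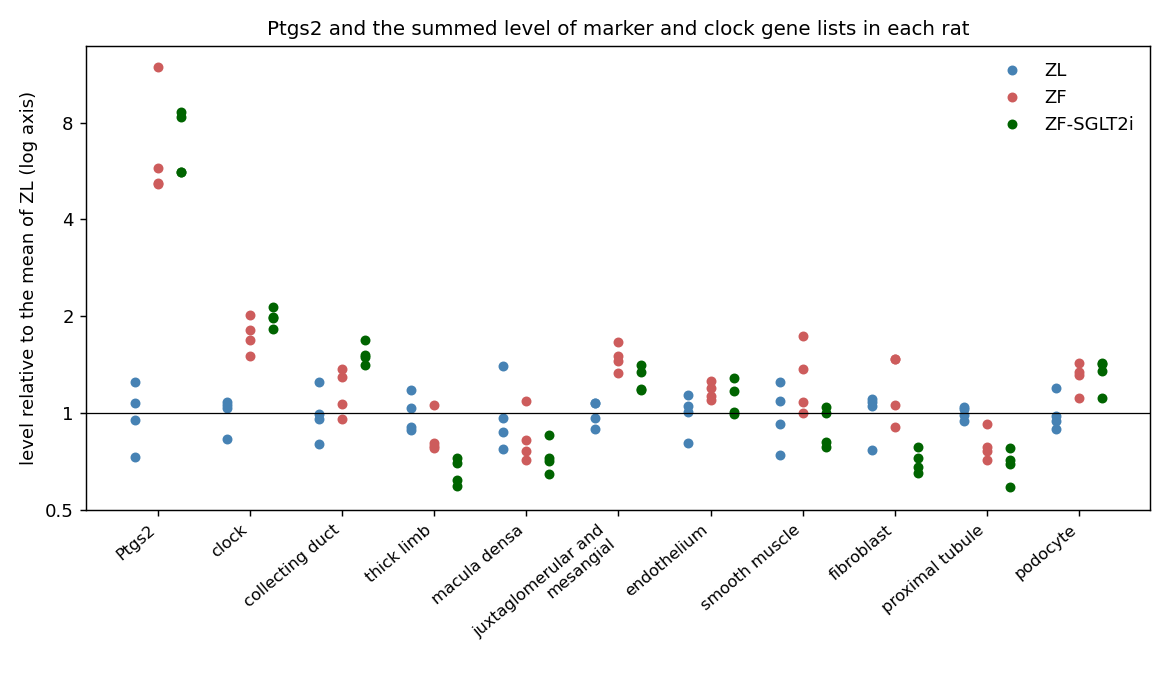
CPM of Ptgs2 and the summed CPM of 10 lists of marker and clock genes in each rat, divided by the mean of the ZL rats (vertical log axis, line at 1), with a point for each of 4 ZL, 4 ZF and 4 ZF-SGLT2i rats. For Ptgs2, the clock list and the juxtaglomerular and mesangial list, the ZL points lie below all 8 points of the obese groups, and the macula densa sum, set almost wholly by Slc12a1 of the thick limb, averages 980 CPM for ZL, 829 for ZF and 717 for treated rats.

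Among the 8631 tested genes that averaged 10 CPM or more, those most like each gene over the 12 rats were named by Pearson's r of log2(value + 1), as a description of rats that differ in group as well as in depth. Ptgs2 was most like Stat3 (r = 0.97), Per3 (0.97) and Camkv (0.96), and after each group's mean was removed these fell to 0.65, 0.69 and 0.64. Ednra was most like Acta2, the smooth muscle actin, with r = 0.92 over all rats and 0.89 within groups. Nos1 was most like Mertk (0.92, and 0.90 within groups), Ptgs1 most like Zbtb46 (0.95, and 0.93 within groups) and Ptger4 most like Dusp18 (0.95, and 0.90 within groups). Ednrb was most like Pvrl2 (0.95, and 0.84 within groups), and Adora1 most like Frmd6 (0.90, and 0.66 within groups). For Edn1, Ece1 and Ptger3 the highest values were 0.80 with Notch2, 0.89 with Pcdhgc3 and 0.86 with Gipc1.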

How the data were processed

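Total RNA of whole renal cortex was depleted of ribosomal RNA, made into strand-specific libraries and sequenced from both ends. The processing notes of the submitters name Trimmomatic 0.38, RSEM 1.3.0, Bowtie2, edgeR and the build rn6, with no role or order. The authors deposited normalized signal values for 13151 genes in 12 rats, with 0 columns of other samples. Each value was a whole multiple (100% of values, tolerance 1e-06) of a constant for its rat, and the constants matched CPM with edgeR's TMM factors, so library size is already corrected in the deposited values. Division by the constants gave read counts, which may be rounded estimates and may stand for read pairs. Depth was 8824980 to 12210257 reads a rat, and counting error is widest for the genes with the fewest reads. Ribosomal Rn28s and Rn45s still held from 7.25% (ZL rat 3) to 15.2% (ZF-SGLT2i rat 6) of the reads on genes, and these reads are part of the library sizes.

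Groups were compared with limma 3.58.1 (R 4.3.3, eBayes with trend, 3 groups in a single fit, two-sided) after adding a pseudocount of 1 and taking log2, in the 11633 genes that reached 1 CPM in 4 or more rats. A gene was called at a Benjamini-Hochberg adjusted p-value under 0.05 over all genes tested. Single genes were also compared by an exact two-sided permutation test of the 70 assignments, whose smallest p is 0.0286. The scripts were tested on simulated data. Alternatives changed the pseudocount (to 0.1), the filter (none, or a mean of at least 10), the scaling (median ratios, or quantile normalization) or the model (only the groups compared, the rat number as a block, array quality weights), left out each rat in turn, or ran DESeq2 1.42.0 and the quasi-likelihood test of edgeR 4.0.16 on the recovered reads.

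The text names the 10 genes, each further pathway gene called in any comparison, and the family members of the 10 whatever their values. The marker lists are described by sums, leading genes and counts of calls. The 10 genes, the lists and the motifs were chosen with earlier results of these data known, and listed genes that are not reported or not analysed here enter no sum and no count of genes tested. Of the gene names, 12146 matched symbols and 796 matched synonyms of the RefSeq table of GRCr8, which is another build than rn6 and gave names, neighbours and the sequences shown. The rats are separate animals of a group by their labels, and no 2 of them were copies of each other. The numbers of the rats are names and did not pair them.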

Additional observations from a re-analysis of the deposited data

Results flagged for a closer look

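A rat stood apart from the other 3 of its group in 12 of 126 groups of 4 rats looked at over 42 genes, where chance alone gives about 1 in 20, or 6.30. Among the 10 genes, this held for 3 of 30 groups. Ptgs2 was 45.6 CPM in ZF rat 5 and 19.7 to 22.1 in the other ZF rats. Ednrb was 62.5 CPM in ZF rat 3 and 68.7 to 69.5 in the others, and Ece1 was 65.8 CPM in ZL rat 3 and 82.6 to 84.3 in the others. Of the family members with few reads, Edn3 was 0.804 CPM in ZL rat 4 (others 0.179 to 0.260), Ece2 was 0.446 CPM in ZF-SGLT2i rat 6 (others 1.21 to 1.33), and Adora2b was 1.45 CPM in ZF rat 4 (others 2.40 to 2.49) and 3.33 CPM in ZF-SGLT2i rat 3 (others 1.90 to 2.12). Of the pathway genes called, Nostrin was 10.2 CPM in ZL rat 2 (others 7.54 to 7.94), Gchfr was 43.8 CPM in ZF-SGLT2i rat 4 (others 38.5 to 38.8), and Ddah2 was 48.4 CPM in ZF-SGLT2i rat 2 (others 53.0 to 53.7). Cbr1 was 17.0 CPM in ZF-SGLT2i rat 4 (others 15.1 to 15.4), and Entpd1 was 42.3 CPM in ZF rat 5 (others 53.9 to 55.2).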

How the results depend on the processing

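With 4 rats a group, the intervals given bound the differences that could be missed, and Edn1, Nos1 and Adora1 are limited by their reads. Of 69 gene results, 28 kept their direction and their side of the threshold in every alternative run, among them Ptgs2 in both obese groups against ZL (2.07 to 2.82 and 2.31 to 2.83) and Ednrb in ZF-SGLT2i against ZL. Over all gene results and alternatives, 1314 values kept their direction and their side of the threshold, 158 lost the call and 10 gained it. The same rat number occurs in several groups, and a replicate block on it gave 1 of the 10 genes in ZF against ZL (Ptgs2), with Ednrb at an adjusted p of 0.0599 and Adora1 at 0.0839, and 6 and 9 pathway genes in ZF and in ZF-SGLT2i against ZL. With this block the genes called came to 807 (in place of 2185) for ZF against ZL, 223 (366) for treated against untreated ZF rats and 1502 (3184) for ZF-SGLT2i against ZL. Correlations of rats with the same number ranged from −0.376 to 0.253, so the numbers do not pair the rats. With each rat left out in turn, genes passing were 1389 (without ZL rat 1) to 2453, between 176 (when treated rat 3 was out) and 570 (when ZF rat 5 was out) and 2241 to 3302, the 10 genes gave 3 to 5, 0 to 0 and 2 to 5, and the pathway genes 10 to 21, 2 to 6 and 15 to 25. Quantile normalization left 2 of the 10 genes in ZF-SGLT2i against ZL. In ZF-SGLT2i against ZF, array quality weights gave 689 genes and 8 pathway genes, DESeq2 gave 641 and 7, and a fit of the 2 groups gave 5 pathway genes, in place of 3. Array quality weights gave 32 pathway genes in ZF-SGLT2i against ZL, in place of 20. The cause of these differences was not tested. Values near 0 changed sign in 25 cases, with no call in any. In ZF against ZL these were Edn1 (−0.024 with quantile normalization, −0.100 to 0.215 with a rat left out), Nos1 (−0.041 with quantile normalization, −0.061 with the block, −0.0050 to 0.175 with a rat left out), Ece1 (−0.0022 to 0.142 with a rat left out) and Ptger3 (−0.017 to 0.141). In ZF-SGLT2i against ZF they were Edn1 (−0.018 with the block, −0.056 to 0.260 with a rat left out), Ptger3 (−0.045 with the block, −0.044 with weights, −0.00058 by edgeR, −0.047 to 0.098 with a rat left out), Ptgs2 (−0.042 to 0.347), Ptger4 (−0.149 to 0.050) and Ece1 (−0.103 to 0.028). In ZF-SGLT2i against ZL this was Ece1 (−0.047 to 0.071).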
